A study of Mus musculus with 8 samples.

Results

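A set of 10 genes of plasma cell identity and antibody secretion, Jchain, Mzb1, Derl3, Tnfrsf17, Tnfrsf13b, Xbp1, Prdm1, Irf4, Sdc1 and Pou2af1, were followed in the mammary glands of parous and virgin mice. They were chosen by name, as the probe sets whose only gene symbol is one of these, and make up 10 of the 19935 genes measured. All 10 were measured, each by 1 probe set, so all 10 are described here, and no filter on low values removed any of them. Gene expression came from 8 arrays of unsorted total mammary cell suspensions of FVB/NHanHsd mice, 4 of parous mice and 4 of age-matched virgin control mice, with 5 mice pooled for each array. Parous mice were mated at an age of 42 days and lactated for 21 days, and the labels give 28 days of involution, while the methods give a longer interval after weaning. No transgene or drug is named for either group. Lymph nodes were removed from the glands, and adipocytes, red blood cells and part of the fibroblasts were removed from the suspensions, so that the remaining immune cells of the tissue were measured together with the epithelium. In such bulk samples, more cells of a type and more RNA per cell cannot be told apart.

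Plasma cells are the end stage of the B cell lineage and do little else than make and secrete antibody. Their program is set by the transcription factors IRF4, BLIMP-1 (encoded by Prdm1) and XBP1, which shut down the B cell program and enlarge the endoplasmic reticulum (ER), and their survival depends on the TNF family ligands BAFF and APRIL. In the mammary gland, plasma cells of the IgA class settle around parturition and in lactation, drawn by the chemokine CCL28, and the IgA they release, joined into dimers by the J chain, is carried through the epithelium into milk by the polymeric immunoglobulin receptor. Several of the 10 genes are not confined to plasma cells: XBP1, BLIMP-1 and syndecan-1 are also made by mammary epithelial cells, and IRF4, OBF-1 and TACI by earlier B cells.

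The promoters of the 4 genes that rose in parous mice are shown because these genes passed in the same direction and because XBP1, the transcription factor of the secretory program, acts through short elements of this kind in ER stress response promoters. Each line gives the 250 bases before the RefSeq start site in build GRCm38.p6, 5′ to 3′ on the strand of the gene. Capitals mark the element CCACG, or CGTGG where it lies on the opposite strand.
Derl3 (chr10:75893148-75893397, plus strand): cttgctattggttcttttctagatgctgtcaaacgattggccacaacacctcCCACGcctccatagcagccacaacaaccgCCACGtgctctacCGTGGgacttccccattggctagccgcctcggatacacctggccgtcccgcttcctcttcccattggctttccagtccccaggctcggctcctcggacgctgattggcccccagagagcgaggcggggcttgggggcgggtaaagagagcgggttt
Jchain (chr5:88527898-88528147, minus strand): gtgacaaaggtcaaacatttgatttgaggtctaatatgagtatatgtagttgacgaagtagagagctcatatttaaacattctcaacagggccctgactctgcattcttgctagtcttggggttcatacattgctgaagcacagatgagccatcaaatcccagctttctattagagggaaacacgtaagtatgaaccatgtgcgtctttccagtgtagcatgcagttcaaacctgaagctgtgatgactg
Tnfrsf17 (chr16:11313559-11313808, plus strand): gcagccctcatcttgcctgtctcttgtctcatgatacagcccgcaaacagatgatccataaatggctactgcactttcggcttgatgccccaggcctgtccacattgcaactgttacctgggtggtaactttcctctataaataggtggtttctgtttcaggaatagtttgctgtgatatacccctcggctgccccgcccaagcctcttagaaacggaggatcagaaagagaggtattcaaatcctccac
Tnfrsf13b (chr11:61126505-61126754, plus strand): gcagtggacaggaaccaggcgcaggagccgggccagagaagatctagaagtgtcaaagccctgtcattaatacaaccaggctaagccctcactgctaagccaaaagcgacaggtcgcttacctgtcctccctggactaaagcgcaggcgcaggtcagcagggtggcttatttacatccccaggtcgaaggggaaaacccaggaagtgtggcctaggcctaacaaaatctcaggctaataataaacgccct

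In Derl3 the element stood 3 times, at positions -198 and -169 on the strand of the gene and at -156 on the other strand, whereas the windows of Jchain, Tnfrsf17 and Tnfrsf13b held none. A promoter window of 300 bases, of which 250 lie before the start, was found for 9 of the 10 genes, and 5 of the 9 held CCACG or CGTGG, the others being Prdm1, Irf4, Sdc1 and Pou2af1. Over all 32851 windows of this length the share was 32.8%. The octamer ATGCAAAT (ATTTGCAT on the opposite strand), the element through which OBF-1 acts, and the motif AGTGAAAG (CTTTCACT), the core that BLIMP-1 binds, were in none of the 9, against 1.74% and 1.32% of all windows. These are matches of letters, which the arrays do not test.

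The values are log2 signals after robust multiarray averaging (RMA), in which 1 unit is a doubling. They serve to compare arrays for the same gene and not genes with each other. A gene was counted as changed at a linear fold change over 1.5 with an adjusted p under 0.05 in limma, adjusted over all 34760 probe sets, and a mean log2 value over 2. Limma and these cut-offs follow what the paper's methods state for its arrays of total mammary cell suspensions. By these criteria 4 of the 10 genes rose in parous mice (Jchain, Derl3, Tnfrsf17 and Tnfrsf13b) and none fell (1, Sdc1, at an unadjusted p under 0.05), where 0.181% of all genes rose and 0.221% fell. By the methods' t-test after adjustment only Derl3 passed (adjusted p = 0.021), and Jchain, Tnfrsf17 and Tnfrsf13b had an adjusted p of 0.13, 0.15 and 0.14. At an unadjusted limma p under 0.05, 6.54% of all genes were higher and 7.49% lower. In 6 of the 10, which include Mzb1 and Xbp1, every parous array was above every virgin array, as it was for 4.61% of all genes. The median log2 fold change of the 10 was 0.88, against 0.00 over all genes. Of the 10 genes, Jchain, Mzb1, Derl3, Tnfrsf17 and Tnfrsf13b formed a first set that separated the groups by gaps of 0.33 to 1.21. Pou2af1 and Irf4 varied mainly within the groups, and the differences of Xbp1, Prdm1 and Sdc1 were small.

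**Figure D1:**
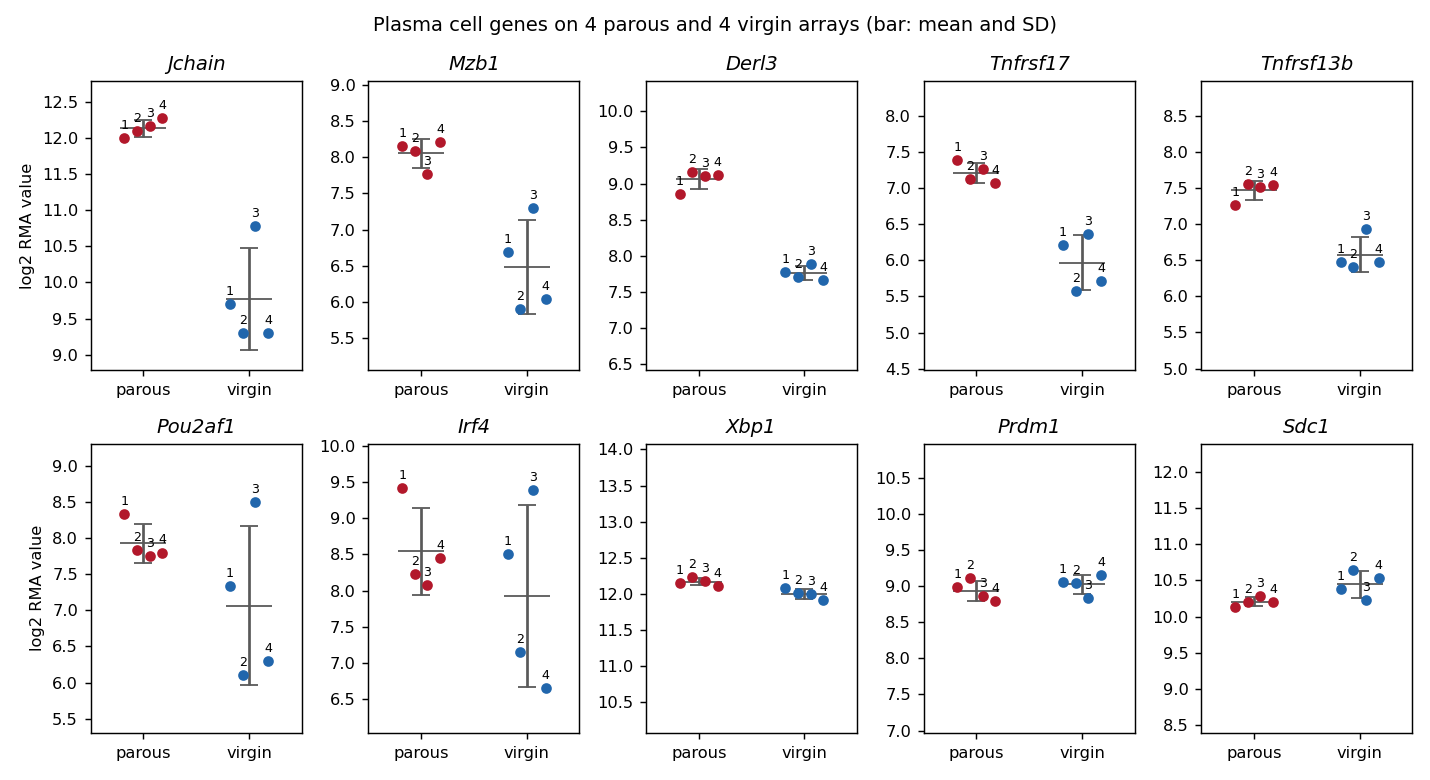
Log2 RMA value of each of the 10 genes on the 4 parous (left) and 4 virgin (right) arrays, numbered by replicate, with the mean and SD of each group; every panel spans 4 log2 units. The upper row separates the groups completely, Pou2af1 and Irf4 are spread most widely among the virgin arrays, and Xbp1, Prdm1 and Sdc1 are almost level.

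Jchain encodes the J chain, which links the monomers of IgA and IgM before their export. It stood at 11.99, 12.10, 12.16 and 12.28 on the parous arrays, against 9.70, 9.30, 10.78 and 9.29 on the virgin arrays. The parous arrays lay within 0.28 of each other and the virgin arrays spread over 1.49, with virgin 3 well above the other virgin arrays and still 1.21 below the lowest parous array. The means were 12.13 ± 0.12 in parous and 9.77 ± 0.70 in virgin mice (SD, n = 4 each), a difference of 2.36 (95% interval 1.67 to 3.06, limma adjusted p = 0.017). Jchain thus had the largest difference of the 10 and, together with Irf4, Pou2af1 and Mzb1, one of the largest spreads among virgin pools.

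Mzb1 encodes a chaperone of the ER that assists the folding and secretion of immunoglobulin. It stood at 8.16, 8.09, 7.77 and 8.21 on the parous arrays, against 6.69, 5.90, 7.30 and 6.04 on the virgin arrays. The groups were 0.47 apart, with virgin 3 again the highest of the virgin arrays and virgin 2 and virgin 4 the lowest. The difference of 1.58 (95% interval 0.91 to 2.24) was larger than that of Derl3, but its adjusted p was 0.081, so Mzb1 did not pass. It did pass when virgin 3 was left out (1.85, adjusted p = 0.011), when probe sets dim in both groups were left out (adjusted p = 0.042) and when only probe sets naming 1 gene were tested (adjusted p = 0.045).

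Derl3 encodes a derlin, a membrane protein that passes misfolded proteins out of the ER for degradation. It stood at 8.86, 9.17, 9.11 and 9.12 on the parous arrays, against 7.78, 7.70, 7.89 and 7.67 on the virgin arrays. Both groups were tight, with SDs of 0.14 in parous and 0.10 in virgin mice, and lay 0.97 apart. The difference was 1.30 (95% interval 1.09 to 1.51, limma adjusted p = 0.0017). Derl3 was the only one of the 10 that passed whichever array was left out, with a log2 fold change of 1.27 to 1.37 in those 8 fits. The other derlins were near 0, at -0.04 for Derl1 (95% interval -0.21 to 0.13) and -0.04 for Derl2 (95% interval -0.25 to 0.16).

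Tnfrsf17 encodes BCMA, the receptor through which plasma cells take up the APRIL survival signal. It stood at 7.39, 7.13, 7.26 and 7.07 on the parous arrays, against 6.22, 5.57, 6.37 and 5.72 on the virgin arrays. All parous arrays were higher by at least 0.70, and virgin 1 and virgin 3 stood above virgin 2 and virgin 4. The difference was 1.24 (95% interval 0.83 to 1.65, limma adjusted p = 0.031). The virgin mean of 5.97 was below the median of all values.

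Tnfrsf13b encodes TACI, a receptor for both BAFF and APRIL on B cells and plasma cells. It stood at 7.26, 7.55, 7.50 and 7.54 on the parous arrays, against 6.48, 6.40, 6.93 and 6.48 on the virgin arrays. The lowest parous array, parous 1, was 0.33 above the highest virgin array, virgin 3, and these were also the arrays that stood apart within their groups. The difference was 0.89 (95% interval 0.59 to 1.19, limma adjusted p = 0.032).

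Of the other 3 calls, that of Jchain held in 2 of the 8 fits with 1 array left out (without virgin 3 and without virgin 4, with an adjusted p of up to 0.083 over the 8), and those of Tnfrsf17 and Tnfrsf13b in 1 (without virgin 3, up to 0.131 and 0.134). Their log2 fold changes over these fits were 2.20 to 2.70, 1.11 to 1.37 and 0.83 to 1.01, all in the same direction. By an exact 2-sided permutation test of each gene alone, Jchain, Mzb1, Derl3, Tnfrsf17, Tnfrsf13b and Xbp1 reached p = 0.029, the smallest p that 4 arrays against 4 allow.

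**Figure D2:**
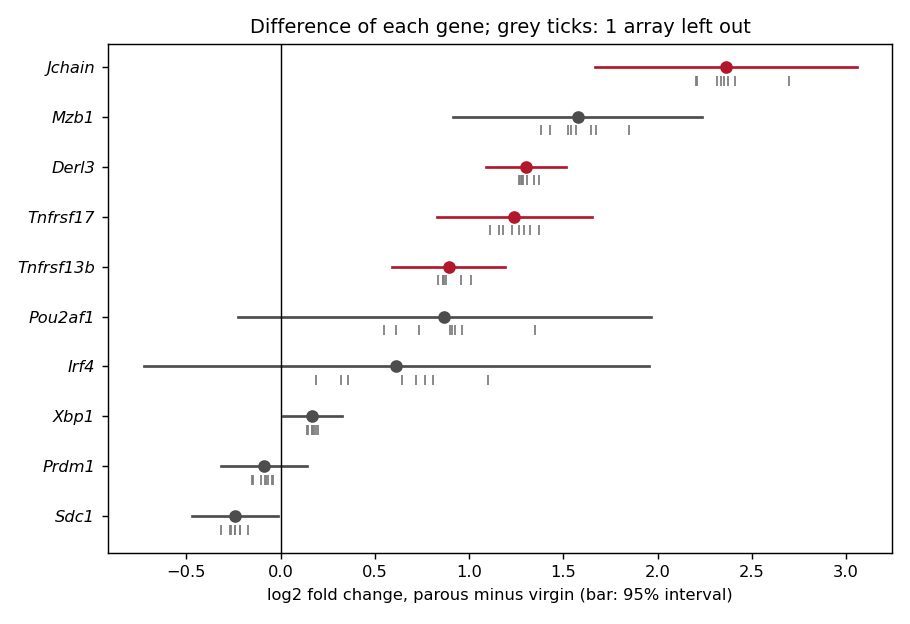
Log2 fold change (parous minus virgin) of each gene with its 95% interval from limma, in red for the 4 genes that passed; grey ticks under each bar are the 8 estimates with 1 array left out. Derl3 has the narrowest spread of the 5 upper genes, and the ticks of Pou2af1 and Irf4 run widest, from 0.55 to 1.35 and from 0.19 to 1.10.

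Pou2af1 encodes OBF-1 (OCA-B), a coactivator of the octamer-binding factors in B cells. It stood at 8.33, 7.83, 7.76 and 7.80 on the parous arrays, against 7.34, 6.11, 8.50 and 6.30 on the virgin arrays. The virgin arrays ran across 2.40 units and surrounded the parous ones, with virgin 3 the highest of all 8. The difference of 0.87 (95% interval -0.23 to 1.96, limma adjusted p = 0.56) did not pass.

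Irf4 encodes the transcription factor that is needed for plasma cell formation and is also active in T cells and macrophages. It stood at 9.41, 8.22, 8.08 and 8.44 on the parous arrays, against 8.51, 7.15, 9.40 and 6.65 on the virgin arrays. Parous 1 and virgin 3 were nearly level at the top, and virgin 2 and virgin 4 were at the bottom. The difference of 0.61 (95% interval -0.73 to 1.95, limma adjusted p = 0.76) did not pass, and without virgin 2 and virgin 4 it was -0.41. In that fit Pou2af1 was at 0.0097 (SE 0.33).

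Xbp1, whose spliced messenger encodes the transcription factor that expands the ER, stood at 12.15, 12.24, 12.18 and 12.11 on the parous arrays, against 12.09, 12.02, 11.99 and 11.92 on the virgin arrays. Every parous array was higher, but the gap between the groups was 0.03. The difference of 0.17 (95% interval 0.01 to 0.33, limma adjusted p = 0.41) was far below the 1.5-fold criterion. The array does not tell the spliced from the unspliced messenger.

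Prdm1, which encodes BLIMP-1, stood at 8.98, 9.11, 8.86 and 8.79 on the parous arrays, against 9.06, 9.05, 8.84 and 9.15 on the virgin arrays. The groups overlapped over nearly their whole range. The difference was -0.09 (95% interval -0.32 to 0.14, limma adjusted p = 0.81).

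Sdc1, which encodes syndecan-1 (CD138), a heparan sulfate proteoglycan by which plasma cells are commonly sorted, stood at 10.13, 10.21, 10.28 and 10.20 on the parous arrays, against 10.38, 10.65, 10.23 and 10.53 on the virgin arrays. Of the virgin arrays, virgin 3 lay among the parous ones. The difference of -0.24 (95% interval -0.47 to -0.01) had a limma adjusted p of 0.41 and an exact permutation p of 0.057. Virgin 3 was the lowest virgin array for Sdc1, while it was the highest for Jchain, Mzb1, Derl3, Tnfrsf17, Tnfrsf13b, Pou2af1 and Irf4.

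Genes of other cell types were set beside these values. The mean centred log2 level of 19 mature B cell genes, which include Ms4a1 and Pax5, was 0.80, -0.37, -0.44 and -0.21 on the parous arrays, against 0.19, -0.66, 1.33 and -0.64 on the virgin arrays. None of the 19 passed and their median log2 fold change was -0.23, with Cd79a, a signalling chain of the B cell receptor, at 0.75 (adjusted p = 0.76) and Blnk, an adaptor behind it, at -0.57 (adjusted p = 0.18). The 12 T cell genes had the same arrays at the top, with parous 1 at 0.95 and virgin 3 at 1.03. Virgin 2 and virgin 4 were at -0.66 and -0.71, and parous 2 and parous 3 at -0.35 and -0.56. None of them passed, Cd3g and Cd3e of the T cell receptor complex being at 0.25 and 0.20. None of 12 macrophage genes passed either, the scavenger receptors Mrc1 and Cd163 having the largest differences, 0.72 (adjusted p = 0.45) and 0.65 (adjusted p = 0.48). At an unadjusted limma p under 0.05, 1 mature B cell gene was higher and 1 lower, no T cell gene was either and 1 macrophage gene was higher, and by the methods' t-test none passed after adjustment. Thus parous 1 and virgin 3 were richest, and virgin 2 and virgin 4 poorest, in B and T lymphocyte messengers, with parous 2 and parous 3 also low.

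**Figure D3:**
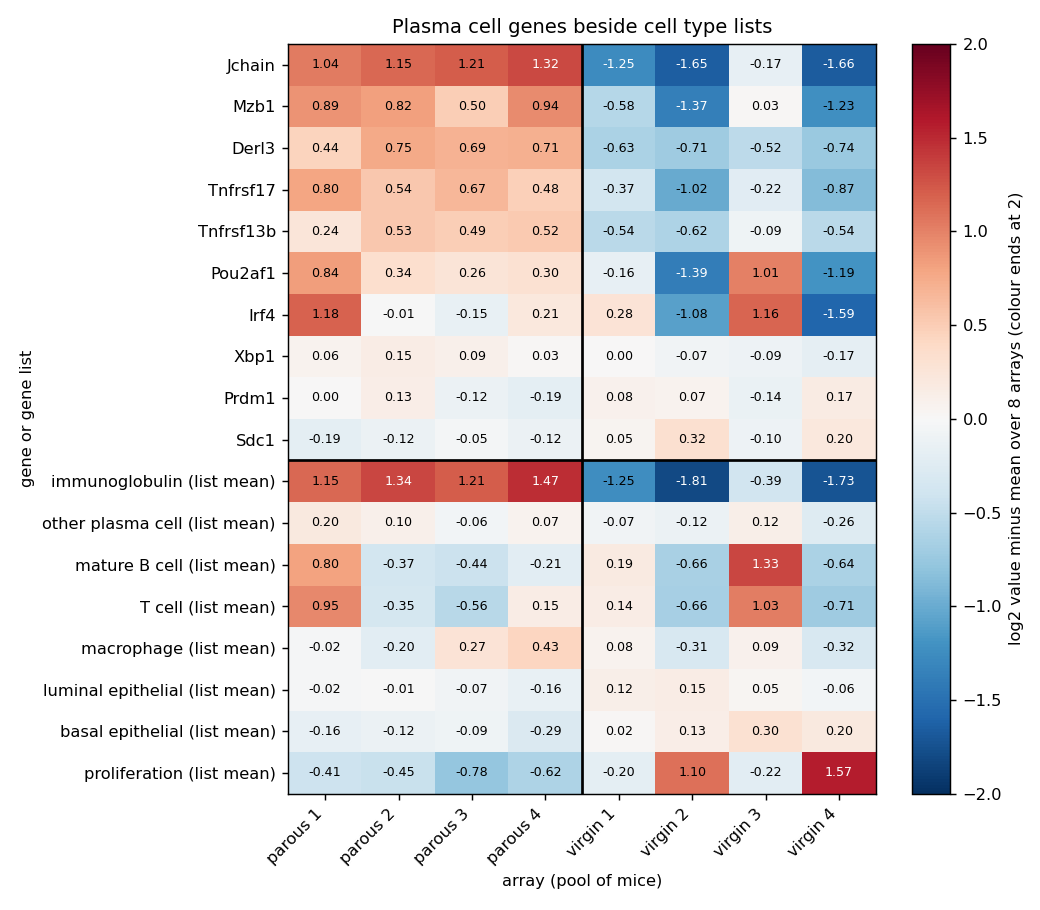
Log2 value minus its mean over the 8 arrays, for the 10 genes (above the line) and for the mean of 8 gene lists (below it), with parous arrays left of virgin arrays. Jchain to Tnfrsf13b share the pattern of the immunoglobulin list, Pou2af1 and Irf4 have parous 1 and virgin 3 high as the mature B cell and T cell lists do, and the proliferation list is high on virgin 2 (1.10) and virgin 4 (1.57).

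Pou2af1 and Irf4 followed this split of the arrays. Over the 8 arrays, Irf4 correlated with the mean of the mature B cell genes at r = 0.87 and Pou2af1 at 0.76, whereas Jchain was at 0.19, Tnfrsf13b at 0.08 and Derl3 at -0.07 (a description over 8 arrays that share their normalization). After each value was centred on the mean of its group, r was 0.96 for Irf4, 0.95 for Pou2af1, 0.88 for Mzb1, 0.87 for Tnfrsf17, 0.77 for Jchain, 0.44 for Tnfrsf13b and 0.06 for Derl3. These centred values pool directions that differed between the groups. Every gene of the first set was highest among virgin arrays on virgin 3, where the mature B cell genes were also highest. Among parous arrays the mature B cell genes were highest on parous 1, where Jchain, Derl3 and Tnfrsf13b were lowest. The centred r of 0.06 for Derl3 therefore does not show a lack of relation within each group.

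**Figure D4:**
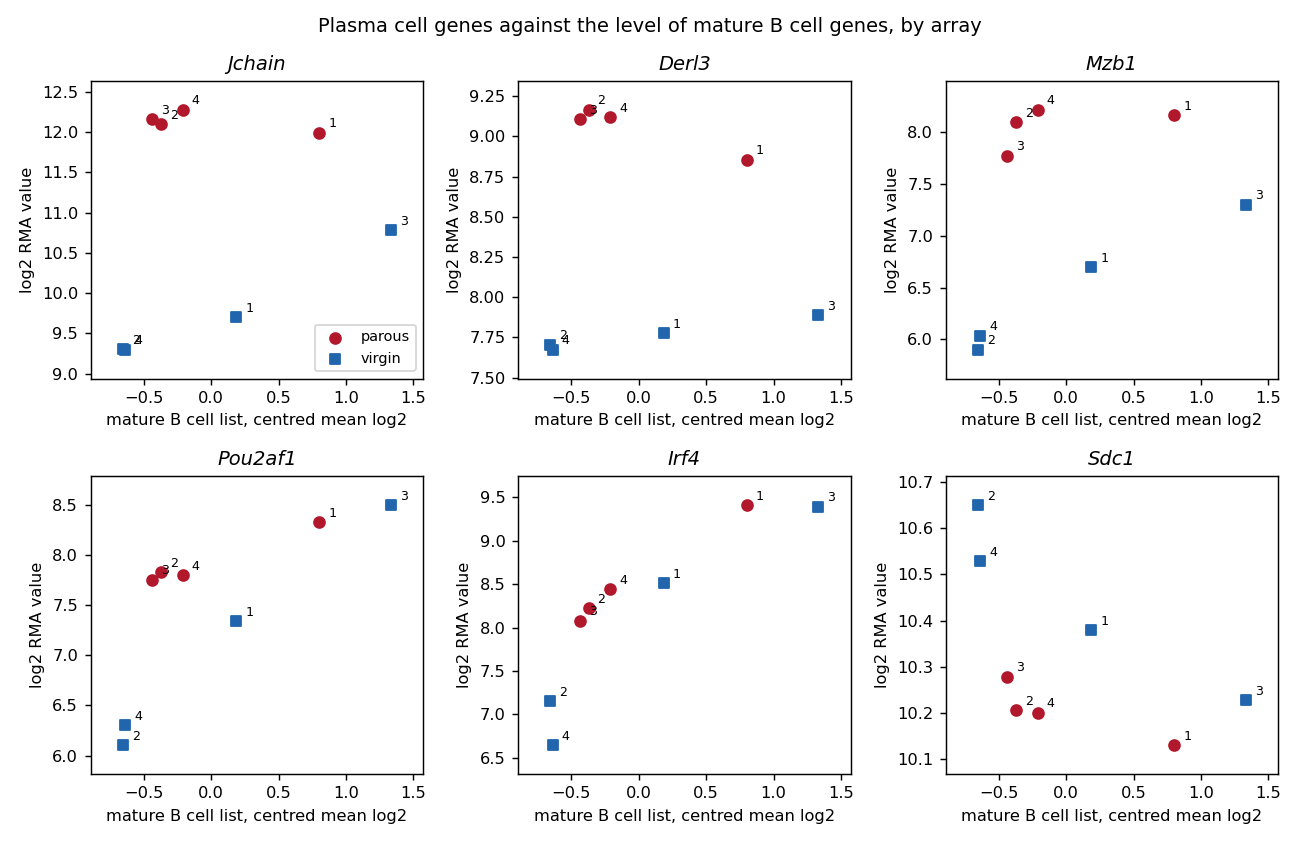
Log2 RMA value of 6 of the genes against the mean centred log2 level of 19 mature B cell genes on each array; red circles are parous and blue squares virgin arrays, numbered by replicate. For Jchain, Derl3 and Mzb1 every parous array lies above every virgin array, whatever stands on the horizontal axis. Irf4 runs along the level of the mature B cell genes in both groups.

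With the level of the mature B cell genes as a covariate in the fit, an alternative added after the data were seen, 5 of the 10 genes rose. Calls also grew among all probe sets, to 105 higher and 81 lower, against 83 and 55 without the covariate. In the covariate fit Jchain was at 2.42 (adjusted p = 0.0038), Mzb1 at 1.64 (0.0054), Tnfrsf17 at 1.28 (0.0037), Derl3 at 1.30 (0.0031) and Tnfrsf13b at 0.90 (0.030). Pou2af1 at 0.98 (SE 0.18, adjusted p = 0.075) and Irf4 at 0.75 (SE 0.18, adjusted p = 0.13) did not pass, though their standard errors without the covariate had been 0.48 and 0.59. Without parous 1 and virgin 3, the arrays richest in lymphocyte genes, Jchain, Derl3 and Tnfrsf13b passed (2.75, 1.41 and 1.08). Mzb1 and Tnfrsf17 had a limma adjusted p of 0.052 and 0.060, and among all probe sets 74 were higher and 22 lower. Without virgin 2 and virgin 4, Derl3 and Tnfrsf17 passed (1.23 and 0.92), and Jchain was at 1.89 (limma adjusted p = 0.074). Among all probe sets 48 were then higher and 52 lower. The proliferation genes that set virgin 2 and virgin 4 apart had a median log2 fold change of -1.25, with 0 of 24 passing (20 lower at an unadjusted p under 0.05). Bub1, a kinase of the spindle checkpoint, was at -2.04 and the cyclin Ccna2 at -1.77, with adjusted p of 0.33 and 0.28.

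The correlations between the 10 genes were examined over their 45 pairs. In 15 pairs both genes separated parous from virgin arrays completely, so that the arrays formed separate clusters and only correlations centred on the group means are given. Among these, Jchain and Tnfrsf13b had a centred r of 0.90, Jchain and Mzb1 0.90, Derl3 and Tnfrsf13b 0.85, Jchain and Tnfrsf17 0.74, Jchain and Derl3 0.64, and Jchain and Xbp1 0.07. Lower values were also found among the genes that rose, with 0.47 for Tnfrsf17 and Tnfrsf13b and 0.23 for Derl3 and Tnfrsf17, and Mzb1 and Derl3 were at 0.46. For Jchain, Mzb1 and Tnfrsf17 the SD was 0.70, 0.64 and 0.38 in virgin but 0.12, 0.20 and 0.14 in parous mice. The centred r between Jchain and Mzb1 or Tnfrsf17 thus rests mostly on the virgin arrays. Among the parous arrays Jchain was lowest on parous 1 and highest on parous 4, and Tnfrsf17 the reverse. Derl3 had the larger SD in parous mice. In the other 30 pairs, 9 pooled correlations passed an exact 2-sided permutation test after adjustment over 45 pairs, 3 of them positive and 6 negative. A pooled r also carries the difference between the groups, which this permutation does not keep apart, so the centred r is given with each.

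All 3 positive pairs held Pou2af1. With Irf4 it had r = 0.93 and rho = 0.79 (exact permutation p = 0.0027 and 0.028, adjusted p = 0.012 and 0.079), and r was 0.80 without virgin 2 and virgin 4, the arrays farthest from the median. With Mzb1 it had r = 0.85 and rho = 0.69 (exact permutation p = 0.0099 and 0.069, adjusted p = 0.027 and 0.13), and with Tnfrsf17 r = 0.79 and rho = 0.69 (exact permutation p = 0.018 and 0.069, adjusted p = 0.038 and 0.13). Both of the last correlations rested on virgin 2 and virgin 4, since r was 0.34 and 0.18 without them. Centred on the group means, r was 0.94, 0.96 and 0.94 for Irf4, Mzb1 and Tnfrsf17.

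All 6 negative pairs held Sdc1. With Mzb1 it had r = -0.95 and rho = -0.95 (exact permutation p = 0.00079 and 0.0011, adjusted p = 0.0072 and 0.026), and r was -0.85 without virgin 2 and virgin 4. With Pou2af1 it had r = -0.95 and rho = -0.83 (exact permutation p = 0.0010 and 0.015, adjusted p = 0.0072 and 0.063), and r was -0.74 without those arrays. With Tnfrsf17, Jchain, Irf4 and Tnfrsf13b r was -0.90, -0.87, -0.83 and -0.82 (exact permutation p of 0.0023, 0.0035, 0.013 and 0.012, adjusted p of 0.012, 0.014, 0.029 and 0.029), and rho was -0.83, -0.74, -0.71 and -0.79 (exact permutation p of 0.015, 0.046, 0.058 and 0.028, adjusted p of 0.063, 0.098, 0.12 and 0.079). Without virgin 2 and virgin 4 these values of r were -0.69, -0.73, -0.45 and -0.65. Centred on the group means, Sdc1 was at -0.97 with Mzb1 and -0.96 with Pou2af1 (exact permutation p within groups of 0.0052 and 0.0035), at -0.91 with Tnfrsf17 and -0.90 with Irf4 (0.031 and 0.023), and at -0.82 with Jchain and -0.61 with Tnfrsf13b (0.11 and 0.28). After adjustment over the 45 pairs no centred correlation passed, the lowest adjusted p being 0.10, and 14 had an unadjusted p under 0.05. Over the 8 arrays, the messenger of the marker most used for plasma cells was thus lower where these genes were high, while its whole range was 0.52 log2 units. Among the parous arrays alone this did not hold for Jchain and Tnfrsf13b, which like Sdc1 were lowest on parous 1. Sdc1 also followed the proliferation list, which is high on virgin 2 and virgin 4, at r = 0.86 over the 8 arrays, while Mzb1, Tnfrsf17, Pou2af1 and Jchain ran against it at -0.89, -0.88, -0.85 and -0.85. The part of proliferating cells in these values was not tested.

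The antibody messengers themselves rose with Jchain. Of 11 immunoglobulin genes measured, each by its probe set of highest mean, 10 passed and 1, Ighg3, did not (3.00, limma adjusted p = 0.091). The median over the 11 was 2.57. With 1 parous array, virgin 1 or virgin 2 left out, 4 to 6 of the 11 passed. Igha, the constant region of IgA, was at 2.39 and Ighm, that of IgM, at 2.57. Within each array, Jchain minus Igha was -0.18, -0.31, -0.15 and -0.02 in parous and -0.05, -0.05, 0.09 and -0.55 in virgin mice, a change of -0.02 (exact permutation p = 0.97). Jchain minus Ighm changed by -0.21 (exact permutation p = 0.11). Immunoglobulin genes are similar in sequence, so that probes of one may capture another.

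For the derlins and the receptors the same subtraction was made. Derl3 minus Derl2 was 0.33, 0.89, 0.74 and 0.87 in parous and -0.69, -0.65, -0.61 and -0.60 in virgin mice. This was a change of 1.34 (exact permutation p = 0.029, adjusted over 6 such differences 0.086), and Derl3 minus Derl1 changed by 1.34 with the same p. For Derl3 alone the groups lay 0.97 apart, while Derl1 and Derl2 ranged over 0.25 and 0.28 across all arrays. Both differences therefore had to reach this smallest p, which adds nothing to the difference of Derl3 itself. Tnfrsf13c encodes the BAFF receptor of mature B cells. Tnfrsf17 minus Tnfrsf13c changed by 1.21 (exact permutation p = 0.057, adjusted p = 0.11) and Tnfrsf13b minus Tnfrsf13c by 0.86 (exact permutation p = 0.17, adjusted p = 0.21), and Tnfrsf13c was high on parous 1 (9.45) and virgin 3 (9.78). Tnfrsf13c itself was at 0.03 (adjusted p = 0.99), and Tnfsf13b, which encodes the ligand BAFF, at 0.32 (95% interval -0.09 to 0.72, adjusted p = 0.56). The gene of APRIL, Tnfsf13, was not analysed here.

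Genes of plasma cell homing and of IgA transport did not pass in any of 15 cases, although 13 of the 15 were above 0 and their median was 0.31. Pigr, the receptor that carries IgA into milk, was at 8.48, 8.96, 8.79 and 8.06 on the parous arrays, against 7.60, 7.71, 7.05 and 6.51 on the virgin arrays, with no overlap and a difference of 1.35 (95% interval 0.69 to 2.02, limma adjusted p = 0.13). Ccl28, the chemokine of IgA plasma cells in mucosal tissue, was at 5.43, 5.56, 5.64 and 5.58 in parous and 5.15, 4.95, 5.07 and 4.94 in virgin mice. Its adjusted p of 0.041 was under the threshold, but its fold change of 1.44 was not over 1.5, and all its values were below the median of each array. At an unadjusted limma p under 0.05, 5 of the 15 were higher and none lower. Ccr10, the receptor of CCL28, was at 0.35 (adjusted p = 0.33), and Cxcl13, which attracts B cells into follicles, at 0.96 (adjusted p = 0.71).

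The wider secretory machinery differed little. Of 30 measured genes of ER folding and XBP1 targets none passed, 9 were above and 21 below 0, with a median of -0.03 and a range from -0.21 to 0.23. Hspa5, which encodes the ER chaperone BiP, was at 0.03 (95% interval -0.13 to 0.19), and Ern1, which encodes the kinase IRE1 that splices Xbp1, at 0.09 (95% interval -0.16 to 0.35). The largest differences of the list were 0.23 for Ddit3, a factor of the stress response, and 0.23 for Herpud1, of ER-associated degradation. Of 17 other plasma cell genes none passed, 13 were above 0 and the median was 0.08, with Tent5c, a poly(A) polymerase of immunoglobulin messengers, at 0.53 (adjusted p = 0.19) and Zbp1, a nucleic acid sensor, at 0.53 (adjusted p = 0.34). At an unadjusted limma p under 0.05, 1 of the 30 and 4 of the 17 were higher and none was lower. Most genes of the ER folding list are active in every secretory cell, mammary epithelium included.

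Of the epithelial genes, none of 14 luminal genes passed, with Foxa1, a factor of hormone-sensing cells, at -1.18 (adjusted p = 0.12) and the keratin Krt19 at -0.47 (adjusted p = 0.044, under the fold change criterion), and 3 higher and 6 lower at an unadjusted limma p under 0.05. Of 10 basal genes 1 fell, the keratin Krt17, at -1.18 (adjusted p = 0.017), a call that held in 3 of 8 fits with 1 array left out, and 4 were lower at an unadjusted limma p under 0.05. The list means overlapped between the groups for the luminal genes, from -0.16 to -0.01 in parous and from -0.06 to 0.15 in virgin mice, and did not for the basal genes, from -0.29 to -0.09 in parous and from 0.02 to 0.30 in virgin mice. The part of epithelial content in the differences of Xbp1, Prdm1 and Sdc1 was not tested.

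Outside the 10 genes and the immunoglobulin genes, those whose values were most like Jchain over the 8 arrays were Eda (r = 0.99), Prr5, Pik3r1, Nr4a2 (r = 0.98 each) and Entpd2 (r = 0.98). Centred on the group means their r was 0.92, 0.91, 0.86, 0.99 and 0.82. None of the 5 passed, with log2 fold changes of 0.46, 0.41, 0.32, 0.24 and 0.57 and adjusted p of 0.081, 0.12, 0.15, 0.29 and 0.057.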

How the data were processed

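Per the labels and the methods, RNA of total mammary cell suspensions was amplified (Ambion WT Expression kit) and hybridised to Affymetrix mouse gene arrays, and the authors deposited log2 values made with rma() of affy (background-corrected, quantile normalized, 1 value per probe set; the methods give a version for R/Bioconductor, and none was found for affy itself). Each of the 8 arrays held 34760 values, with medians of 6.29 to 6.43, and arrays correlated at 0.976 to 0.993. The number of arrays limits the precision. No batch, scan or estrous stage is given for a pool. The paper describes 4 independent experiments, each with 5 mice of both groups, but no source used here ties an array to an experiment; if pools share a source, p-values measure only the spread between them.

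Of the probe sets, 21640 named 1 gene, 1321 several and 11799 none here. Symbols were updated through the gene identifier (21553), an accession (3) or kept (84). Where several probe sets named a gene, the one of highest mean was used. The fit was limma 3.58.1 in R 4.3.3 (lmFit by group, eBayes, 2-sided, parous minus virgin, Benjamini-Hochberg over all probe sets). Intervals are 95%. Permutation tests were exact, over 70 splits of the arrays, 40320 orders or, within groups, 576 orders. Pairs of genes were adjusted over 45. The score of a gene list is the mean of its genes, each centred over the 8 arrays. Promoters were taken from RefSeq, build GRCm38.p6; that of Mzb1 is not shown.

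The 10 genes, the 11 lists beside them and all tests were chosen with earlier results of these data known. Named by rule were the 10 genes, up to 3 genes that passed in each list (2 with the largest change where none did), ligands, receptors and partners of the 10, and the 5 genes most like Jchain; Derl1, Derl2 and the 6 within-array differences were chosen after their values were seen, and immunoglobulin variable genes that the rule names are not reported here by name. Alternatives were a replicate block, each array left out, renewed quantile normalization, median centring, trend and robust eBayes, and array weights. Others were the Student t-test, single-gene probe sets, dim probe sets left out, other thresholds and another choice of probe set. A covariate and the removal of pairs of arrays were added later, with the values known. The limma fit was tested on simulated data.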

Additional observations from a re-analysis of the deposited data

Results flagged for a closer look

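In groups of 4 arrays, 3 of 42 groups checked (the 10 genes and 11 list means in parous and in virgin mice) had an array whose gap to its nearest neighbour exceeded Dixon's critical share of the range of the group at 95%; chance gives about 1 in 20. Tnfrsf13b was low on parous 1, at 7.26 against 7.50 on the next parous array, and high on virgin 3, at 6.93 against 6.48 on the next virgin array. Pou2af1 was high on parous 1, at 8.33 against 7.83 on the next parous array. Both arrays were also the highest of their groups in the mature B cell list, with 0.80 for parous 1 and 1.33 for virgin 3.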

How the results depend on the processing

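The direction of the 10 genes held under every alternative but 1: Irf4, not called in any fit, was at -0.41 without virgin 2 and virgin 4, where Pou2af1 was at 0.0097. The 4 genes higher in parous mice became 1 (Derl3) with the replicate number as a block and by the Student t-test after adjustment. They became 2 without virgin 2 and virgin 4, and 1 to 5 with 1 array left out. No member passed as lower in any fit. Same-numbered arrays deviated together at 0.12, 0.18, -0.06 and 0.31. Of the 8 arrays, 4 correlated best with their own number in the other group. All best matches were mutual: parous 2 with virgin 2, parous 4 with virgin 4, parous 1 with virgin 3 and parous 3 with virgin 1. The numbers were therefore not taken as pairs, and the block joined some arrays against these matches. The experiments each held both groups and may pair the arrays in a way that the labels do not give. A fit with the mutual matches as pairs was not run. Among all probe sets, 83 were higher and 55 lower. With the block these were 25 and 24, and by the Student t-test 6 and 5 after adjustment and 436 and 361 at an unadjusted p under 0.05. In limma at an unadjusted p under 0.05 they were 535 and 495, and with 1 array left out 27 to 110 and 15 to 69. Without virgin 2 and virgin 4, 48 were higher. Without parous 1 and virgin 3, 22 were lower, and at a fold change over 2, 29 were lower. Of the pairs of genes, 9 passed pooled, 0 centred on group means, 1 by Spearman's rho, 0 without the 2 arrays farthest from the median and 5 to 17 with 1 array left out; with the 2 arrays gone fewer orders are possible, and the cause of the other changes was not tested. For the context lists, 498 of the alternative counts stayed within 1.5 times, 12 rose and 18 dropped. A comparison of 4 arrays with 4 cannot give an exact permutation p under 0.029.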
